A study of Mus musculus with 9 samples.

Results

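STAT proteins are transcription factors that wait in the cytoplasm until a cytokine receptor's Janus kinases phosphorylate them. They then pair, enter the nucleus and switch on genes that include their own inhibitors, the SOCS family. SOCS proteins bind the activated receptors or kinases through an SH2 domain, and a SOCS box recruits a ubiquitin ligase, which closes a feedback loop. In invariant natural killer T (iNKT) cells, T cells whose semi-invariant receptor reads lipids held by CD1d, cytokines that act through these factors, IL-15 above all, keep the T-bet-expressing iNKT1 subset alive. This section describes 8 genes of that loop, listed by symbol and chosen with earlier results of these data known. They are the feedback genes Socs1, Socs2, Socs3 and Cish, and the factors Stat3, Stat5a, Stat5b and Stat6. All 8 were among the 14004 genes of the deposited table.

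Bulk RNA-seq had been done on iNKT1 cells of 3 organs (thymus, liver and spleen) of untreated C57BL/6 mice, with 3 libraries per tissue. All 9 libraries came from 1 genotype, a Tbx21Cre transgene (Tbx21CreTg) with the Rosa26-LSL-YFP+/+ reporter, in which cells that have expressed Tbx21, the gene for T-bet, are marked by YFP. No group lacked the transgene. The comparisons ask how these cells differ between the organ where they develop and 2 peripheral organs. Values are normalised read counts as deposited, and n is 3 libraries per tissue. The labels do not say whether the libraries of a tissue came from separate mice, so p-values measure only the spread between these libraries.

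Depth was 18506598 to 39568081 recovered reads in 8 libraries and 3889000 in liver replicate 3, whose low values are therefore less precise. Thymus replicates 1 and 2 had reads for 10476 and 11180 genes, and the remaining 7 libraries for 11781 to 13038. Across genes, thymus libraries were as far from each other (Pearson r of log2(value + 1) 0.704 to 0.748) as from liver libraries (0.71 to 0.818). All 8 iNKT1 markers, which include Tbx21, Zbtb16, Il2rb and Cd3e, had more than 3 reads in every library. The 5 immature thymocyte genes in the table, most of whose sum is Cd4, summed to 2596, 7398 and 1665 in thymus replicates 1, 2 and 3, to 6462 to 7962 in liver and to 5471 to 10080 in spleen. Of these genes, Cd4 was lowest in thymus replicate 3, whereas Rag1 was at 486 there and had no read in the other 2 thymus libraries. Xist, which is transcribed from an inactive X chromosome, was at 84543 or more in replicate 2 of each tissue and at 16530 or less in the other 6 libraries.

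The promoters of 2 feedback genes hold the short palindrome TTCNNNGAA, the form of site that STAT dimers are known for, and they are shown because they are the members with a match and 2 of the 4 feedback genes described below. The sequences run 5′ to 3′ on the strand of the gene, from 250 bases before to 50 bases after a RefSeq start site (GRCm38.p6). Capitals mark each match.

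Cish, chr9:107296409-107296708, plus strand: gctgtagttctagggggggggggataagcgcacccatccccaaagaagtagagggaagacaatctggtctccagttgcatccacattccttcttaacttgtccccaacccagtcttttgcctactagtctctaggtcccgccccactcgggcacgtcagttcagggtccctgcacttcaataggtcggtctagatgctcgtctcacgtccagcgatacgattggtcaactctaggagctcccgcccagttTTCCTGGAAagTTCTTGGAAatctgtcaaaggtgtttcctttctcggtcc

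Socs3, chr11:117969317-117969616, minus strand: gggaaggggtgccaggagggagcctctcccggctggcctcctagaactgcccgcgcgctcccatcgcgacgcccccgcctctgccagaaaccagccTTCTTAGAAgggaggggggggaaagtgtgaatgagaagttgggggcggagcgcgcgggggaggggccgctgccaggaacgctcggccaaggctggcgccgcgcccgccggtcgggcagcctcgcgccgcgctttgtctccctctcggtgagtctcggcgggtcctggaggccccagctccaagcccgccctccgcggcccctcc

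Cish carried 2 matches, TTCCTGGAA and TTCTTGGAA, within the first 50 bases after the start site, and Socs3 carried 1, TTCTTAGAA, that begins 154 bases before it. Both strands are covered because the pattern is its own reverse complement. Of 32851 promoter windows of 300 bases in the RefSeq table, 8.3% held at least 1 match and 0.457% held 2 or more. A wider form with 4 bases between TTC and GAA, often linked to STAT6, was in 6.95% of all windows. In the 9 windows of the 7 members that the table covers, the shorter form was in 2 and the wider form in 0, with no overlap between matches. Socs2 was the member not matched. A match is a string of letters and not a measured binding site.

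Over the 8 members, no difference between tissues passed an adjusted p of 0.05, and the 4 feedback genes had lower means in the thymus than in liver and spleen. Of the 4 STAT factors, Stat3 had that order of means too, by a smaller margin, and Stat5a, Stat5b and Stat6 did not. No test compared the feedback genes with the STAT factors. In liver vs thymus, limma-trend called 0 of the 8 members, where it called 0.323% of 13309 genes. At an unadjusted p under 0.05 there were 3 members, against 11.6% of all genes. In spleen vs thymus it called 0 members, where 0.398% of all genes were called (0.188% higher in spleen), with 2 members at an unadjusted p under 0.05 (11.7% of all genes). In liver vs spleen it called 0 members, with 0.015% of all genes called and 1 member at an unadjusted p under 0.05 (3.03% of all genes). In the test of any tissue difference 0 members passed, as 0.346% of all genes did, and 2 members had an unadjusted p under 0.05 (9.95% of all genes). On the recovered reads, edgeR's quasi-likelihood test called 0 members in liver vs thymus, spleen vs thymus, liver vs spleen and the test of any tissue difference, where it called 0.136%, 0.256%, 0.016% and 0.248% of the genes it tested. DESeq2 called far more genes: Socs2 and Socs3 in liver vs thymus, with 3.94% of all genes given an adjusted p, Socs3 in spleen vs thymus, with 4.35%, and 0 members in liver vs spleen, with 0.194%. In its test of any tissue difference it called Socs2 and Socs3, with 3.35% of all genes. All 8 members passed the filter on low values.

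The groups can also be read by whether their values overlap. In liver vs thymus, all 3 liver values lay above all 3 thymus values for Socs2, Socs3 and Cish, 3 of 8 members, as for 9.61% of all genes tested. No member lay wholly below (5.73% of all genes, 15.3% in either direction). In spleen vs thymus the same held for Socs1, Socs2 and Socs3, against 9.29% of all genes higher and 6.03% lower (15.3% in either direction). The 2 comparisons share the thymus libraries. In liver vs spleen, Socs2 lay wholly above (5.97% of all genes) and Stat6 wholly below (6.77% of all genes). All 4 feedback genes were above the median of all genes tested, a log2 fold change of 0.29 in liver vs thymus and 0.33 in spleen vs thymus. Their own medians were 1.98 and 1.73. The 4 other SOCS genes tested, which are not members, had medians of 0.12 and 0.09, below those of all genes. For the 4 STAT genes the medians were 0.02 and 0.24, with 0 and 1 of the 4 above the median of all genes. The plot of values by library shows the feedback genes and the STAT factors among the members.

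**Figure D1:**
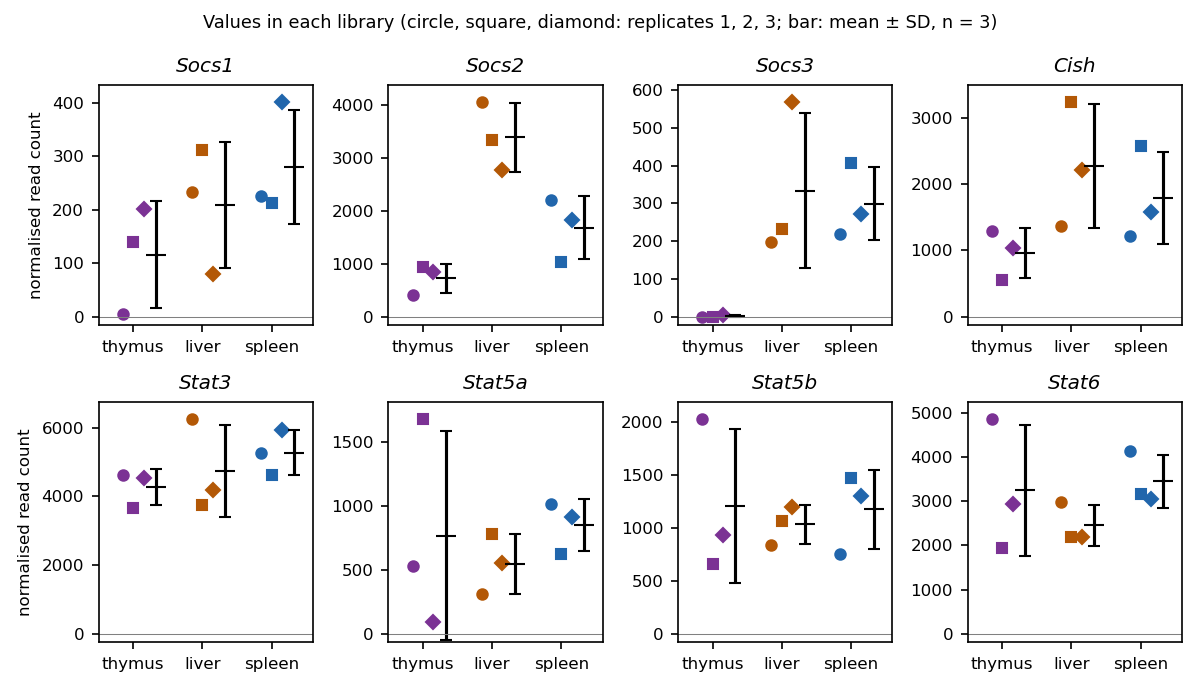
Normalised read count of each member in the 9 libraries, on linear axes. Circles, squares and diamonds are replicates 1, 2 and 3, and the black bars are mean ± SD (n = 3). Socs3 lies at or near 0 in all 3 thymus libraries and at 197 to 569 in the other 6, Socs2 is highest in the 3 liver libraries, and the values of the 4 Stat genes overlap between thymus and both other tissues.

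Socs3 (ENSMUSG00000053113, chromosome 11, 117966079 to 117970047, minus strand, GRCm38) encodes the inhibitor of receptors that use the gp130 chain, and it is best known for limiting STAT3. It had 0 reads in thymus replicates 1 and 2 and 4 reads in thymus replicate 3, where its value was 5.07. In liver it was at 197, 233 and 569 and in spleen at 219, 406 and 272 in replicates 1, 2 and 3. No thymus value came near the lowest value of either other tissue. The 4 reads stand among 71237158 reads in the 3 thymus libraries (95% exact Poisson interval 1.09 to 10.2 reads, counting error only). The means were 1.70 ± 2.91 (SD, n = 3) in thymus, 333 ± 205 in liver and 299 ± 96.4 in spleen, so the ratios of 195 and 175 to thymus rest on those 4 reads.

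The log2 fold change of Socs3 was 7.33 (SE 1.55, 95% interval 4.03 to 10.63) in liver vs thymus and 7.29 (SE 1.55, 3.99 to 10.59) in spleen vs thymus. The limma-trend adjusted p-values were 0.063 and 0.0584, just above the threshold. Without thymus replicate 3, the library with the 4 reads, they were 0.0241 and 0.0226. That fit also called more of all genes, 151 instead of 43 in liver vs thymus and 140 instead of 53 in spleen vs thymus. Over 20 alternatives the adjusted p-values of Socs3 ranged from 2.87e-07 to 0.356 and from 4.19e-07 to 0.291, and each passed in 2. Between liver and spleen the difference was 0.04 (95% interval -3.26 to 3.34, adjusted p = 0.9999 by limma-trend), which leaves room for a change of several-fold either way.

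Few genes with at least the lowest Socs3 value in liver and spleen were as near absent from the thymus libraries. At least 197 normalised reads in each of the 6 liver and spleen libraries were found for 5666 genes. Of these, 3 genes (0.0529%) had at most 4 reads in every thymus library: Socs3, Mmp9, which encodes a secreted matrix protease, and Pak6, which encodes a p21-activated kinase. Pias4, with at most 4 reads in every thymus library and 137 or more normalised reads in liver and spleen, missed the limit of 197. Both limits were set from the Socs3 values themselves, without an upper limit on level, so this count only describes the pattern.

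Summed levels of genes of other cells also differed between libraries. The summed level of 8 hepatocyte genes was 110 to 868 in thymus, 1384 to 1874 in liver and 0.525 to 49.0 in spleen, with Apoc3, Ahsg and Fgb without a read in every thymus and spleen library. Most of the liver sum was Alb, whereas most of the thymus sum was Trf, at 109.8, 598 and 205 in thymus and 43.5, 7.69 and 19.3 in liver. The 6 B cell genes used summed to 3157 to 5354, 5835 to 8561 and 5265 to 15290, most of it Ighm, and Cd79a, Cd79b and Ms4a1 had no read in any thymus library. The 5 myeloid genes summed to 0.136 to 279, 25.6 to 1245 and 32.3 to 3244. In spleen replicate 2, 4 of the 6 B cell genes and 4 of the 5 myeloid genes had at most 3 reads, and Socs3 was at 406, the highest value in spleen. In liver replicate 3, where Socs3 was highest of all at 569, Lyz2 (404), Cd79a (138) and H2-Aa (122) had their highest liver values, whereas Cd68, Cd74 and Ms4a1 were highest in liver replicate 1, where Socs3 was at 197. The part of other cells in the Socs3 difference was not tested. Of 10 immediate early genes tested, which respond to handling as well as to signals, 0 passed in any of the 3 comparisons. The list summed to 12730 to 21210 in thymus, 7282 to 9149 in liver and 7339 to 14170 in spleen. Its members differed, and Jun was at 6.32 or less in thymus, 50.4 to 288 in liver and 227 to 406 in spleen. Nr4a1 was at 13.8 or less, 79.9 to 251 and 281 to 884. Egr2, Ier2, Dusp1, Dusp2, Zfp36 and Btg2 had their highest mean in thymus. For Egr2 (874 against 859 in spleen) and Zfp36 (2424 against 2406) the means were nearly equal. The Ier2 mean rested on thymus replicate 3, at 1301, with 25.8 and 42.8 in thymus replicates 1 and 2. Egr1 had its lowest mean in thymus, at 1859, with 2620 in liver and 2725 in spleen. The part of handling in the Socs3 difference was not tested. In bulk RNA, fewer cells that express a gene and less RNA per cell cannot be told apart.

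Socs2 (ENSMUSG00000020027, chromosome 10, 95385362 to 95417180, minus strand, GRCm38) encodes the inhibitor known for restraining growth hormone receptor and STAT5 signals. It was at 405, 932 and 836 in thymus, 4071, 3338 and 2775 in liver and 2200, 1026 and 1831 in spleen. The 3 tissues did not overlap: every liver value was above every spleen value, and every spleen value was above every thymus value, though spleen replicate 2 came close to thymus replicate 2. The means were 724 ± 281, 3395 ± 650 and 1686 ± 601 (SD, n = 3), 4.69-fold higher in liver and 2.33-fold higher in spleen than in thymus.

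On the log2 scale Socs2 was 2.30 higher in liver than in thymus (SE 0.49, 95% interval 1.26 to 3.33, adjusted p = 0.063 by limma-trend). This lies 2.004 above the median of all genes. It passed in 5 of 20 alternatives: both rescalings, to equal totals counted without mitochondrial genes or to equal medians (adjusted p = 0.0396 and 0.0468 by limma-trend), DESeq2 (0.000202), and the fits without thymus replicate 2 (0.0482) or thymus replicate 3 (0.0448). The highest value, 0.326, came without liver replicate 1. In spleen vs thymus the log2 fold change was 1.24 (95% interval 0.20 to 2.27, adjusted p = 0.3331 by limma-trend), and it passed in 0 of 20 alternatives. In liver vs spleen it was 1.06 (0.03 to 2.096), with an unadjusted p of 0.0446 and a limma-trend adjusted p of 0.9999.

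**Figure D2:**
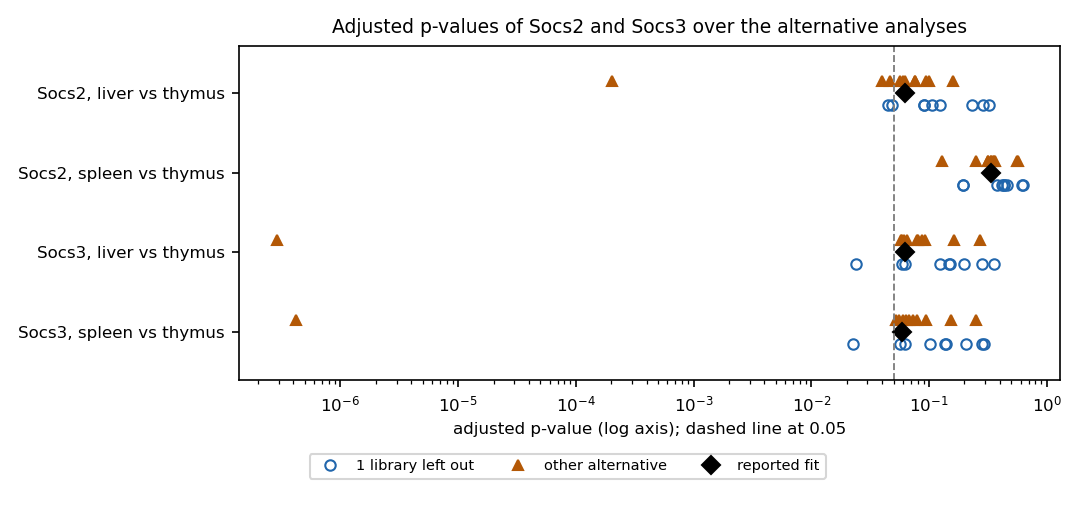
Adjusted p-values (log axis) of Socs2 and Socs3 in the comparisons with thymus. Black diamonds are the reported limma-trend fit, open circles the 9 fits that left out 1 library and triangles the 11 other alternatives, and the dashed line is 0.05. The far-left triangles are DESeq2, and 3 of the 4 reported values, at 0.063, 0.063 and 0.0584, lie just right of the line.

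Cish (ENSMUSG00000032578, chromosome 9, 107296026 to 107302784, plus strand, GRCm38) encodes CIS, a STAT5-induced inhibitor that tempers IL-2 and IL-15 responses in T and NK cells. Its values were 1286, 549 and 1042 in thymus, 1363, 3242 and 2204 in liver and 1223, 2572 and 1571 in spleen. The liver values cleared the thymus values by a small margin, since liver replicate 1 stood close to thymus replicate 1, and the spleen values overlapped them. The means were 959 ± 375, 2269.8 ± 941 and 1788 ± 700.3 (SD, n = 3). The log2 fold change was 1.24 in liver vs thymus (95% interval 0.15 to 2.33, unadjusted p 0.0286, adjusted p = 0.3704 by limma-trend) and 0.91 in spleen vs thymus (-0.18 to 2.01, adjusted p 0.5033). Neither passed in any of 20 alternatives. On the opposite strand, 2 annotated genes that are not in the table overlap exons of Cish, and whether counting used strand is not given in the sources used here.

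Socs1 (ENSMUSG00000038037, chromosome 16, 10782240 to 10785536, minus strand, GRCm38) encodes a direct inhibitor of Janus kinases that limits interferon and common gamma-chain cytokine signals. It was at 5.63, 139.9 and 202 in thymus, 233, 312 and 79.8 in liver and 226, 212 and 402 in spleen. The low liver value came from the shallow library, liver replicate 3, with 13 reads, and the low thymus value from thymus replicate 1, with 5 reads. Spleen values were all above thymus values, and liver values overlapped both. The log2 fold change was 1.65 in liver vs thymus (95% interval -1.34 to 4.65, adjusted p = 0.6751 by limma-trend) and 2.23 in spleen vs thymus (-0.77 to 5.22, adjusted p 0.5565). Both depended on thymus replicate 1, without which they were 0.10 and 0.67.

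**Figure D3:**
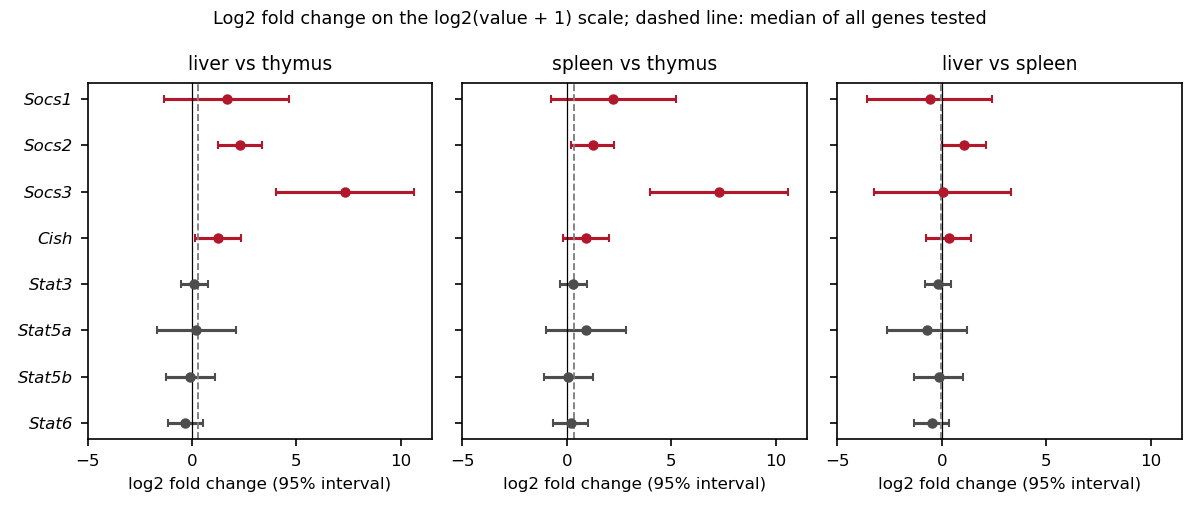
Log2 fold change of each member on the log2(value + 1) scale, with 95% intervals from limma-trend (n = 3 per tissue), for the 3 comparisons. Red marks the SOCS-family genes, grey the Stat genes, and the dashed line the median of all 13309 genes. The intervals of Socs2 and Socs3 lie above 0 in both comparisons with thymus, whereas every Stat interval includes 0.

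Stat3 (ENSMUSG00000004040, chromosome 11) carries signals of IL-6, IL-10 and IL-21 family cytokines. It was at 4623, 3656 and 4521 in thymus, 6253, 3740 and 4192 in liver and 5266, 4618 and 5920 in spleen. Values of the 3 tissues overlapped. The log2 fold change was 0.12 in liver vs thymus (95% interval -0.52 to 0.76, adjusted p = 0.9112 by limma-trend) and 0.30 in spleen vs thymus (-0.34 to 0.95, adjusted p 0.7262), so changes beyond about 2-fold lie outside these intervals. The sign of the first turned with array weights, at -0.07.

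Stat5a (ENSMUSG00000004043) and Stat5b (ENSMUSG00000020919) encode the near-identical factors that carry IL-2, IL-7 and IL-15 signals. They lie side by side on chromosome 11, at 100859351 to 100885169 and 100780731 to 100850724 (GRCm38). Reads from their shared stretches could be split or lost between them, and the end of Stat5a overlaps that of Stat3 on the other strand, so the single values are uncertain. Stat5a was at 529, 1679 and 95.3 in thymus, 309, 778 and 552 in liver and 1012, 621 and 914 in spleen. Its thymus values spanned those of both other tissues. Stat5b was at 2032, 659 and 931 in thymus, 837, 1067 and 1199.8 in liver and 755, 1469.5 and 1306 in spleen, again with overlap throughout. Within the thymus the share of Stat5a in the sum of the 2 genes was 20.7%, 71.8% and 9.28%, against 27.0% to 42.2% in liver and 29.7% to 57.3% in spleen. The sum itself was 1975 ± 829 in thymus, 1580.5 ± 379 in liver and 2026 ± 233 in spleen (SD, n = 3). Fold changes of Stat5a were 0.21 and 0.92 on the log2 scale in liver and spleen vs thymus, with 95% intervals of -1.69 to 2.12 and -0.99 to 2.82 (adjusted p = 0.9479 and 0.7203 by limma-trend). The first turned to -0.47 with edgeR and -0.52 with DESeq2. For Stat5b they were -0.07 (-1.25 to 1.11) and 0.07 (-1.11 to 1.25), with adjusted p-values of 0.9736 and 0.9763, and both changed sign under other scalings or tools.

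Stat6 (ENSMUSG00000002147, chromosome 10, 127642986 to 127660957, plus strand, GRCm38) carries IL-4 and IL-13 signals. It was at 4863, 1937 and 2934 in thymus, 2991, 2192 and 2187 in liver and 4145, 3169 and 3041 in spleen. Every liver value was below every spleen value, by a narrow gap, and the thymus values spanned both. The liver vs spleen difference was -0.49 on the log2 scale (95% interval -1.32 to 0.33, adjusted p = 0.9999 by limma-trend), and it had the same sign without any 1 of the 9 libraries (-0.64 to -0.35). Against thymus it was -0.32 in liver (-1.14 to 0.51) and 0.18 in spleen (-0.65 to 1.002), with adjusted p-values from limma-trend at 0.7864 and 0.8974. The exons of Stat6 overlap those of Nab2 on the other strand.

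Levels of different genes were compared per kilobase of annotated exon (GENCODE M21, all exons of a gene merged), a scale that understates genes with long rarely used exons. In the thymus the order of mean levels was Stat6 (737 ± 338 normalised reads per kilobase, SD, n = 3), Stat3 (448 ± 55.8), Stat5b (218 ± 131), Cish (149 ± 58.4), Stat5a (108 ± 115), Socs2 (76.0 ± 29.5), Socs1 (39.8 ± 34.5) and Socs3 (0.59 ± 1.01). Of neighbours in that order, only Stat3 and Stat5b, and Socs1 and Socs3, did not overlap. Socs1 and Socs3 were separated only narrowly, at very few reads. The lowest Socs1 value was 1.94 (5 reads, thymus replicate 1), and the highest Socs3 value was 1.75 (4 reads, thymus replicate 3). In liver, Stat6 (558 ± 105) and Stat3 (496 ± 141) again led, but Socs2 (356 ± 68.2) and Cish (354 ± 147) came next, ahead of Stat5b (187 ± 33.1), Socs3 (115 ± 71.0), Stat5a (76.5 ± 32.9) and Socs1 (71.6 ± 40.5). All neighbours overlapped there. In spleen the order was Stat6 (784 ± 137), Stat3 (553 ± 68.3), Cish (279 ± 109), Stat5b (212 ± 67.6), Socs2 (177 ± 63.0), Stat5a (119 ± 28.5), Socs3 (103 ± 33.3) and Socs1 (96.3 ± 36.4). There Stat6 and Stat3, and Stat3 and Cish, did not overlap.

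For the 3 members with the smallest p in the test of any tissue difference, the genes with the most similar profile over the 9 libraries were sought among 10681 genes with a mean of at least 50. For Socs3 they were Mmp9 (Pearson r 0.981 on log2(value + 1)), Ampd2 (0.979) and Pak6 (0.974), and 93 named genes exceeded 0.9. For Socs2 they were Enoph1 (0.952), Rccd1 (0.951) and Casp1 (0.94), with 17 above 0.9. For Cish they were Polr3gl (0.968), Pla2g16 (0.959) and Eif1 (0.938), with 8 above 0.9. Like Socs2, Casp1 was highest in liver, at 343 to 684, with 14.4 to 226 in spleen and at most 0.0443 in thymus. These correlations rank genes over 9 libraries that share the depth and tissue differences above, and they are descriptions only.

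Other genes of the pathway were taken from 8 lists with 64 genes, of which 60 were tested. In liver vs thymus 0 rose and 2 fell (3.33%, against 0.323% of all genes), and in spleen vs thymus 2 rose and 1 fell (5%, against 0.398%). The lists were chosen with earlier results of these data known, so these shares only describe them. In liver vs spleen 0 of 60 passed with limma-trend, against 0.015% of all genes, with 2 of the genes named here, Il7r and Bcl2, past the threshold in some alternatives. Among 17 cytokine receptor genes tested, Il7r, the IL-7 receptor chain that feeds STAT5, fell in liver and no other passed. Il7r was at 39747, 50118 and 27831 in thymus, 4131, 4674 and 2109 in liver and 15547, 17003 and 8546 in spleen. The fall was 10.8-fold by the means, a log2 fold change of -3.47 (SE 0.34, adjusted p = 0.0002 by limma-trend), a call that all 20 alternatives kept. In spleen vs thymus Il7r had a log2 fold change of -1.54 (adjusted p 0.0652), which passed in 4 of 20 alternatives, DESeq2 among them (0.00531). In liver vs spleen it was -1.93 with no overlap of values (adjusted p 0.127), which passed in 3 of 20 alternatives, DESeq2 (0.00148) and array weights (0.00473) among them.

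Of the 4 Janus kinase genes, Jak2, which serves gp130-type, IL-12 and interferon-gamma receptors, rose in spleen and the other 3 did not pass. It was at 3893, 4466 and 4495 in thymus, 5850, 7570 and 7571 in liver and 9420, 16739 and 14221 in spleen. The spleen values were all above the liver values, and those were all above the thymus values. In spleen vs thymus the log2 fold change was 1.61 (SE 0.27, adjusted p = 0.0151 by limma-trend), a call that 17 of 20 alternatives kept (0.127 without spleen replicate 2). In liver vs thymus it was 0.70 (adjusted p 0.335).

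Among 10 other inhibitors, Ptpn6, which encodes the phosphatase SHP-1, fell in both tissues and Pias4, which encodes a SUMO ligase that can restrain STATs, rose in spleen. Ptpn6 was at 16256, 12080 and 10409 in thymus, 4229, 3444 and 3829 in liver and 3417, 1692 and 2319 in spleen. Its log2 fold changes were -1.73 in liver and -2.42 in spleen (SE 0.32 each, adjusted p = 0.0292 and 0.00331 by limma-trend), calls that 12 and 20 of 20 alternatives kept (up to 0.188 in liver, without liver replicate 2). Pias4 was at 5.06 or less in every thymus library, at 255 to 340 in liver and at 1951, 137 and 441 in spleen. On the log2 scale it rose by 7.69 in spleen (SE 1.54, adjusted p = 0.043 by limma-trend), which passed in 10 of 20 alternatives and was at 0.269 without spleen replicate 1, and in liver it was 6.89 (adjusted p 0.0847).

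No gene passed in the other 5 lists with limma-trend. The smallest p in the test of any tissue difference belonged to Il21 of 6 cytokine genes tested, Stat2 of the 3 other STAT genes, Socs6 of the 4 other SOCS genes, Elob of the 4 SOCS box partners and Bcl2 of 12 STAT target genes. Il21, a cytokine that acts through STAT3, was at 1.31 or less in thymus and at 24.1 to 149 in spleen, with a log2 fold change of 5.88 (adjusted p = 0.211 by limma-trend). Elob, the elongin B subunit that docks the SOCS box, had a log2 fold change of 1.90 in spleen (adjusted p 0.333). Bcl2, a survival gene, was 0.90 higher in liver than in spleen on the log2 scale (unadjusted p 0.00203, adjusted p 0.9999), which passed in 1 of 20 alternatives, with array weights (adjusted p 0.0362). The median log2 fold change of the STAT target genes was 0.15 in liver vs thymus and 0.48 in spleen vs thymus, beside 0.29 and 0.33 for all genes.

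**Figure D4:**
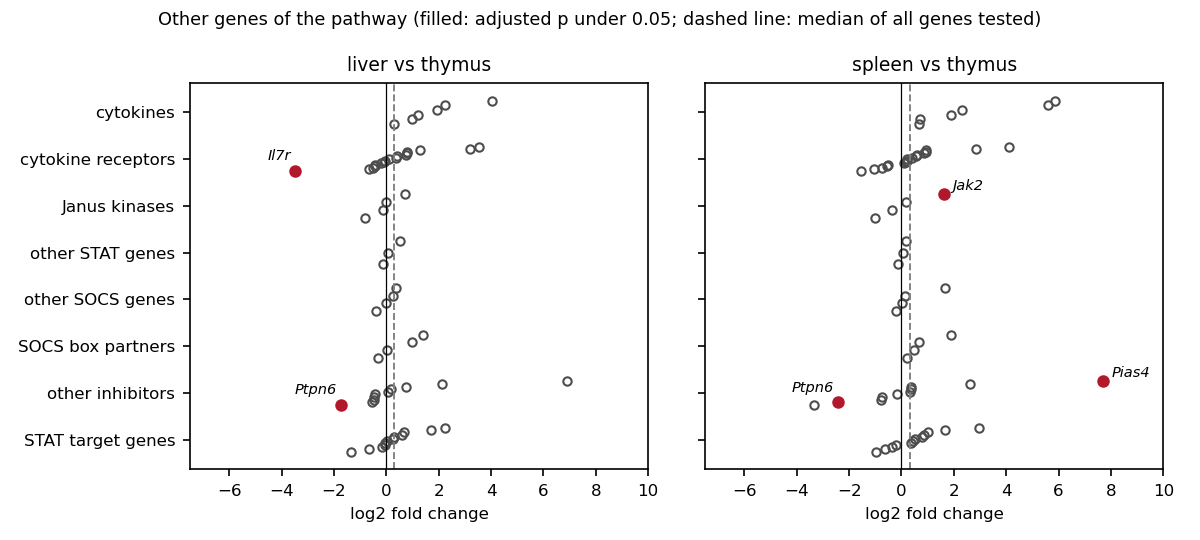
Log2 fold change of the 60 other pathway genes tested, by list, in liver vs thymus and in spleen vs thymus. Filled red points passed an adjusted p of 0.05 (limma-trend), open points did not, and the dashed line is the median of all genes. Il7r and Ptpn6 lie on the left in liver, Ptpn6 on the left and Jak2 and Pias4 on the right in spleen.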

How the data were processed

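RNA from iNKT1 cells of 3 tissues was sequenced in 9 libraries. The deposited values are normalised read counts, treated as a signal, which the authors made per gene and library; the submitters' processing notes name Trimmomatic 0.33, TopHat2 2.1.0, HTSeq 0.6.1, edgeR and the mm10 build, without their settings. Columns were matched to samples by tissue and replicate number. The column of thymus replicate 2 has the prefix WTf where the others have WT, and the labels do not explain the added letter. Symbols matched 13359 of 14004 gene identifiers. No per-sample column was left unused.

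In each library the small values are spaced evenly, and that spacing with its offset gave back the reads. Of 15737 values worth 1 to 20 reads, 89.7% were whole to within 0.1 reads; the share was 55.9% in liver replicate 3 and at least 98.2% in the other libraries, so its reads are approximate.

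The test was limma-trend (limma 3.58.1, R 4.3.3) on log2(value + 1), for the 13309 genes that reached 1 in 3 or more samples. A single model held all 9 samples, with tissue as the factor, two-sided contrasts, an F-test of any tissue difference, Benjamini-Hochberg adjustment over all genes and a threshold of 0.05. Fold changes on this scale understate the change of low genes. Alternatives were other pseudocounts, filters and scalings, array weights, a replicate term, only the 6 samples compared, each library left out, and edgeR 4.0.16 and DESeq2 1.42.0 on recovered reads. The procedures were tested on simulated data. The members, lists and tests were chosen with earlier results of these data known. Text names all 8 members; from each pathway list, up to 4 genes past the threshold or else the gene of smallest p over tissues; and the 3 most similar genes of 3 members. Mmp9, Pak6 and the immediate early genes were also named after their values were seen. A marker gene of the B cell list is not reported here.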

Additional observations from a re-analysis of the deposited data

How the results depend on the processing

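Each of the 24 log2 fold changes of the members was recomputed under 20 alternatives. Of these 480 values, 446 kept the direction and the side of the threshold, 9 passed only under the alternative (5 for Socs2 in liver vs thymus, 4 for Socs3), and 25 turned sign, all among differences that did not pass. Of the 8 members, 1 (Socs2) passed in liver vs thymus with equal totals (counted without mitochondrial genes, which were still tested) and with equal medians. Over all genes 48 and 49 passed there, against 43 in the main fit. With DESeq2 2 members passed in liver vs thymus, 1 in spleen vs thymus and 2 in the test of any tissue difference. Over all genes DESeq2 called 460, 518 and 362 in these tests. With 1 library left out the member counts in the same tests ran from 0 to 2, 0 to 1 and 0 to 1, and liver vs spleen stayed at 0. Without thymus replicate 3, Socs2 and Socs3 passed in liver vs thymus and Socs3 in spleen vs thymus. That fit called 151 and 140 of all genes, against 43 and 53 in the main fit.

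The labels do not say what a replicate number shares across tissues. Deviations from the tissue means correlated at -0.000732 to 0.0891 between libraries of the same number, none over 0.1 although 8 of 9 were positive, and not every library was closest to its own number. Xist was nevertheless highest in replicate 2 of each tissue, so shared origin is neither shown nor denied and the fits were left without a pairing. With the replicate block, 0 members passed, Socs2 and Socs3 had adjusted p-values of 0.10 and 0.0916 in liver vs thymus, and 4 genes instead of 2 passed in liver vs spleen. Il7r passed with the block in spleen vs thymus (0.00437) and liver vs spleen (0.00214).

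Over all genes, 43, 53, 2 and 46 passed in liver vs thymus, spleen vs thymus, liver vs spleen and the test of any tissue difference. DESeq2 gave 460, 518, 24 and 362, edgeR 17 and 32 in the first 2, and the 6 samples compared 12, 16 and 6. Array weights gave 18 in liver vs spleen and 74 in the test of any difference. With 1 library left out the ranges were 8 to 151, 9 to 140, 0 to 3 and 18 to 74, with the highest of the first, second and last without thymus replicate 3. In spleen vs thymus the main split of 25 higher and 28 lower became 22 and 16 with those equal totals.

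Log2 fold changes that turned sign, none of them past the threshold, were as follows, and the cause was not tested. With array weights Socs3 was -0.0020 in liver vs spleen, and in liver vs thymus Stat3 was -0.067 and Stat5b 0.064. With edgeR and DESeq2 Stat5a was -0.47 and -0.52 in liver vs thymus and Stat5b -0.034 and -0.088 in spleen vs thymus. With those equal totals Stat5b was 0.10 in liver vs thymus and Stat2 0.043 in spleen vs thymus. With 1 library left out, liver vs thymus ranged from -0.10 to 0.27 for Stat3, -0.89 to 1.18 for Stat5a, -0.43 to 0.38 for Stat5b, -0.64 to 0.027 for Stat6, -0.42 to 2.05 for Il21 and -0.38 to 1.25 for Socs6. Spleen vs thymus ranged from -0.18 to 1.88 for Stat5a, -0.28 to 0.53 for Stat5b, -0.14 to 0.52 for Stat6 and -0.38 to 0.24 for Stat2. Liver vs spleen ranged from -0.97 to 0.0082 for Socs1, -0.43 to 0.33 for Socs3, -0.44 to 0.043 for Stat5b and -1.71 to 0.20 for Pias4.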
